A study of Mus musculus with 12 samples.

Results

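The 43 genes described here are interferon-stimulated genes, the genes that cells switch on when an interferon binds its receptor. They were chosen by name, with earlier results of these data known, from the 54532 genes listed for each library, and all 43 were found. Among them, 36 are mostly known as type I interferon response genes, and 7 encode GTPases best known for their induction by interferon-γ (*Gbp2*, *Gbp3*, *Gbp7*, *Igtp*, *Irgm1*, *Iigp1* and *Ifi47*). *Irf1* was kept with the first class, although interferon-γ also induces it. mRNA was measured by RNA-seq in WT mouse primary CD8+ T cells, which were activated, transfected with an siRNA and then cultured for 24 h with 20 μM TVA or with DMSO. TVA is *trans*-vaccenic acid, a fatty acid found in ruminant milk and meat. The siRNA was either siNTC, a non-targeting control, or siCreb1, which is directed against the mRNA of the transcription factor CREB. The 4 groups (siNTC with DMSO, siNTC with TVA, siCreb1 with DMSO and siCreb1 with TVA) had 3 libraries each. Every library came from cells that were activated and treated with an siRNA, and the control for TVA was the DMSO vehicle. The labels do not say whether the libraries of a group came from separate mice or cultures, so p-values measure only the spread between these libraries, which may be technical. Beyond the genotype WT, the labels used here do not describe the mice, and siRNA knockdown is transient and partial.

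Type I interferons signal through the receptor chains IFNAR1 and IFNAR2 and the kinases JAK1 and TYK2 to ISGF3, a complex that holds STAT2 and IRF9 and binds the interferon-stimulated response element (ISRE). Interferon-γ signals through IFNGR1, IFNGR2, JAK1 and JAK2 to the interferon-gamma activated site (GAS) in its target promoters, and many of its later targets are reached through IRF1. The products detect viral nucleic acid, bind or degrade viral RNA, attach the ubiquitin-like protein ISG15 to other proteins, or, in the case of the GTPases, attack the membranes around intracellular pathogens. CREB acts on a different sequence, the cAMP response element (CRE). The comparisons therefore asked how the RNA levels of this antiviral and antimicrobial programme stood after TVA, after the knockdown, and whether the TVA difference depended on the knockdown.

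Promoter windows of 300 bases, from 250 before to 50 after each RefSeq start site on GRCm38.p6, were matched by symbol for 33 of the 43 genes, which had 39 windows in all. The ISRE core GAAANNGAA, searched on both strands, was present in 21 of the 39 windows (53.8%) and in 8.56% of the 32851 windows of all genes. The GAS core TTCNNNGAA was present in 20.5% of the members' windows and in 8.3% of all windows. The full CRE TGACGTCA was present in 0 of the members' windows and in 1.79% of all windows, and the short CRE TGACG in 15.4% and 20.8%. The short CRE is contained in the full CRE, and ISRE and GAS cores can overlap. Of the genes with a window, 5 of 6 GTPase genes and 16 of 27 type I-type genes had an ISRE core. A match says only that these letters are present, and the absence of a full CRE says nothing of CREB binding outside these windows.

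The 6 windows below are shown because their genes carry the results: *Stat2*, *Irf1*, *Gbp2* and *Igtp* changed with TVA and with the knockdown, *Slfn5* fell with the knockdown, and *Ifit3* has the most ISRE cores of the 6 and was called in no comparison. Capitals mark an ISRE core or a GAS core, on either strand; in *Irf1* the capitals are the GAS core, and in *Igtp* the first block in capitals is the GAS core and the second the ISRE core.
Stat2, chr10:128270248-128270547, plus strand: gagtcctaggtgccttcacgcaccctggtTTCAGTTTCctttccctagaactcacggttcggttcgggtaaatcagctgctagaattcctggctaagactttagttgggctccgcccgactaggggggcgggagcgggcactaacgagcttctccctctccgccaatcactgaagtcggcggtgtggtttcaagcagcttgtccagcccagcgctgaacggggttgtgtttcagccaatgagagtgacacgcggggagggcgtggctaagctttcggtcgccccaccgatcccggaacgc
Irf1, chr11:53769764-53770063, plus strand: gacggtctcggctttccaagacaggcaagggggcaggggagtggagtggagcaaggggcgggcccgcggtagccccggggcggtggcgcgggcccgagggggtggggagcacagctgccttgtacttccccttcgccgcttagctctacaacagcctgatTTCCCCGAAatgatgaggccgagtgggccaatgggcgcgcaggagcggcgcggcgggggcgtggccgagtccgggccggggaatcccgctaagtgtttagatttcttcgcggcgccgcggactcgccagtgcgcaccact
Gbp2, chr3:142620413-142620712, plus strand: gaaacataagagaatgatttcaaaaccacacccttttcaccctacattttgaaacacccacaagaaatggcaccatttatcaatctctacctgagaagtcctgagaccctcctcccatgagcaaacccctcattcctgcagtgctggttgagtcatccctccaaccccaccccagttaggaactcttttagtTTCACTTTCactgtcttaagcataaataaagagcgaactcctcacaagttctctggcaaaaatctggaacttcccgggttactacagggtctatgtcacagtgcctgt
Igtp, chr11:58199306-58199605, plus strand: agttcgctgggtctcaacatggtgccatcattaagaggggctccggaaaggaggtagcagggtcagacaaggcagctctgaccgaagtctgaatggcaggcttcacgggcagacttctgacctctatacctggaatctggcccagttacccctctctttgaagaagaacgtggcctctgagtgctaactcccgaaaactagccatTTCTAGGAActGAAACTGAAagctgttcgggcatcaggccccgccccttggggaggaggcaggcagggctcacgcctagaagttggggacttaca
Slfn5, chr11:82951852-82952151, plus strand: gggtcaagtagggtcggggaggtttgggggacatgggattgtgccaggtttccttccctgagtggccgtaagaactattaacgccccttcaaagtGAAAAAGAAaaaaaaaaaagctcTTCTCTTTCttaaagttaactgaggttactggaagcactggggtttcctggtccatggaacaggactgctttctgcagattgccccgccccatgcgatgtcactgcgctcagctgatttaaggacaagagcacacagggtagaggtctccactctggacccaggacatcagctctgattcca
Ifit3, chr19:34583279-34583578, plus strand: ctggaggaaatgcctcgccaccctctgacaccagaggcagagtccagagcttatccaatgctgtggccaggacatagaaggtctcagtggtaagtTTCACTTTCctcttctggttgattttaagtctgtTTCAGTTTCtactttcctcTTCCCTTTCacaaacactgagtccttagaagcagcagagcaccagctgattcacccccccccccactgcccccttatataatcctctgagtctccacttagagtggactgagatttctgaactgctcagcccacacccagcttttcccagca
Positions are counted from the start site, negative before it. The GAS core of *Irf1* began at −90 and the ISRE core of *Gbp2* at −58. In *Igtp* the GAS core began at −45 and the ISRE core at −34. *Ifit3* had 3 ISRE cores, beginning at −155, −121 and −102, while the single core of *Stat2* began at −221.

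FPKM, the unit of the values, are reads per kilobase of gene scaled to the reads of the library, so levels of different genes can be set beside each other. Depth was between 16660234 and 24602484 recovered reads per library. All 12 libraries held the T cell markers *Cd3d*, *Cd3e*, *Cd3g*, *Trac*, *Cd8a* and *Cd8b1*, whose 6 values summed to between 2220 and 2377 FPKM. Markers of B cells, myeloid cells, NK cells, plasmacytoid dendritic cells and CD4 T cells summed to at most 18.2 FPKM per list. *Siglech*, a plasmacytoid dendritic cell marker, was at or below 0.0888 FPKM. The plasmacytoid sum held only *Siglech*, *Ccr9* and *Tcf4*. It left out the interferon-stimulated gene *Bst2*, which alone was at 88.3 to 106 FPKM, so the limit of 18.2 FPKM does not hold for a list with *Bst2*. The myeloid sum came mainly from *Lyz2* and *Fcer1g*, while *Csf1r*, *Adgre1*, *Cd14* and *Itgam* were at or below 0.381 FPKM. The plasmacytoid sum came mainly from *Ccr9* (12.9 to 14.9 FPKM), and *Ms4a1* of the B cell list was at or below 0.294 FPKM. *Creb1*, the targeted gene, was at 10.3 to 12.4 FPKM in the 6 siNTC libraries and at 1.17 to 1.81 FPKM in the 6 siCreb1 libraries, which did not overlap (exact permutation test over all 924 divisions, two-sided p = 0.00216). The knockdown left 13.4% of the *Creb1* level without TVA and 13.1% with TVA.

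In activated CD8+ T cells 3 GTPase genes had the highest levels of the 43. *Igtp*, which encodes the immunity-related GTPase IRGM3, had the highest mean, 317 FPKM over the 12 libraries, followed by *Ifi47* with 264 and *Gbp2* with 122. The other GTPase genes lay between 25.5 FPKM for *Gbp3* and 42.1 for *Iigp1*, below several type I-type genes. The highest means among the type I-type genes were those of *Bst2*, which encodes tetherin, with 97.9 FPKM, *Irf1* with 84.5 and *Ifi27* with 80.5. The classical antiviral genes were far lower, with 13.3 FPKM for *Isg15*, 4.75 for *Ifit1* and 2.04 for *Mx1*. *Oas2*, *Oasl1*, *Oasl2*, *Rsad2* and *Ifi44* were below the mean of 1 FPKM required for a test, and *Ifi44* had only 5 to 15 reads per library. The other 38 genes were tested, and their median level was 24.9 FPKM.

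**Figure D1:**
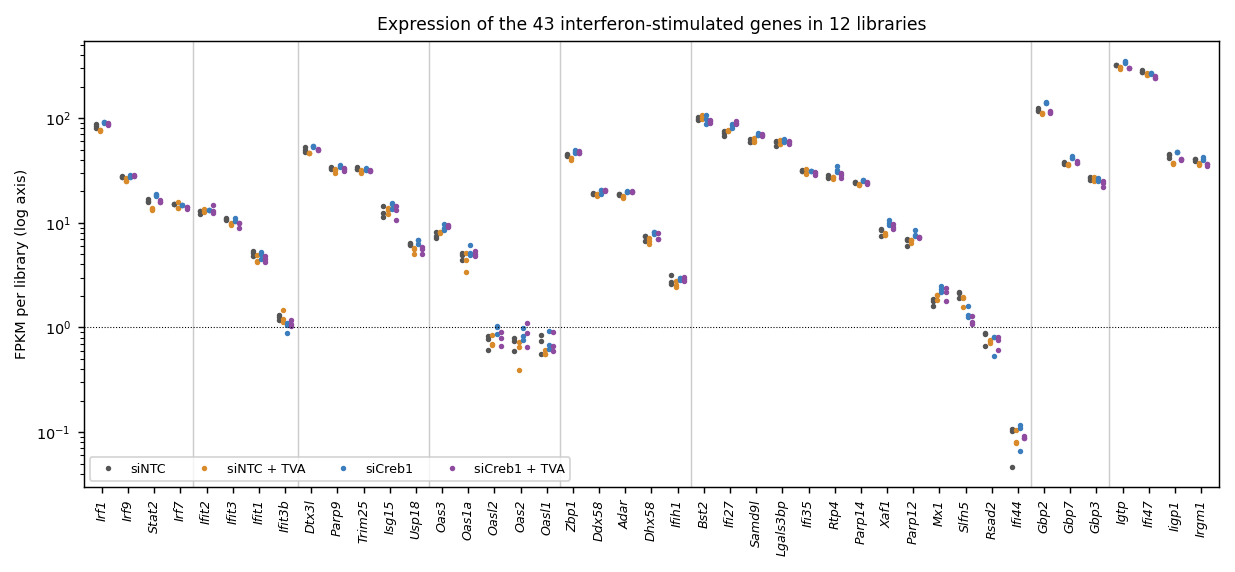
FPKM of the 43 interferon-stimulated genes on a log axis, 1 point per library, coloured by group and ordered by role and mean level; the dotted line marks 1 FPKM. The GTPase genes at the right reach 317 FPKM for *Igtp*, the 5 genes below the line were not tested, and the 4 colours of each gene lie close together.

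Differences between groups were small beside differences between genes. Within a group, the 3 libraries of a tested gene had a coefficient of variation between 1.59% and 13.1%, with a median of 4.01%. It was 2.73% at the median of the 23 genes with a mean of at least 15 FPKM and 6.40% at the median of the 15 genes below that level, so the better-read genes gave the more precise comparisons. A gene is called here when its Benjamini-Hochberg adjusted p over all 11550 tested genes is under 0.05. The siCreb1 group had the highest mean for 22 of the 38 and the siNTC with TVA group the lowest for 20, as the map of all members by library shows. This order was not counted over all tested genes, so it is not shown to be particular to the members.

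**Figure D2:**
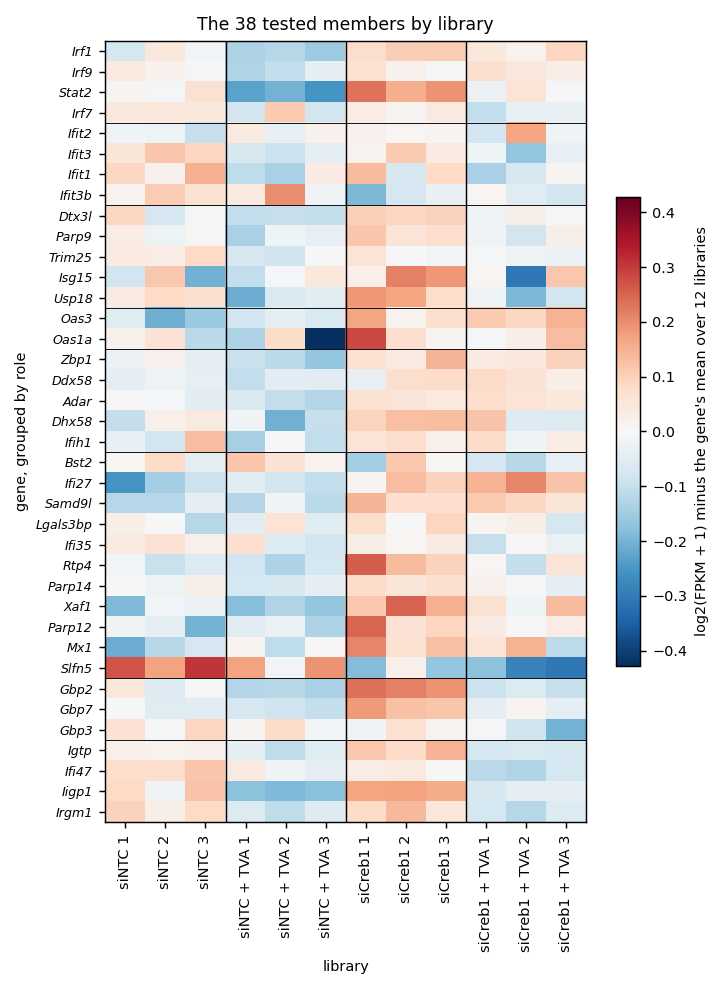
Each row is 1 of the 38 tested genes, grouped by role, and each column 1 of the 12 libraries; colour is log2(FPKM + 1) minus the mean of that gene over the 12 libraries, red above and blue below it. In 20 of the 38 rows the siNTC with TVA group has the lowest mean, in 22 the siCreb1 group has the highest, and *Slfn5* is highest in the siNTC libraries. The order of groups was not counted over all tested genes.

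TVA lowered a small set of these genes and raised none. In siNTC cells 6 of 38 members were called and all 6 were lower: *Irf1*, *Stat2*, *Gbp2*, *Igtp*, *Irgm1* and *Iigp1*, by 5.83% to 17.0%. Over all 11550 tested genes 2.88% were called lower and 4.49% higher, against 15.8% and 0 of the members. No member was called higher by limma on FPKM or on the recovered reads, and 0 were higher at an unadjusted p under 0.05. The median log2 fold change was −0.08 over the members and −0.0056 over all tested genes. Of the 7 GTPase genes 4 were called, and of the 31 tested type I-type genes 2. The other 32 members had log2 fold changes between −0.17 and 0.10, and the 95% interval reached to a median of 0.10 on either side over the 38. That interval is not adjusted for the number of genes tested, so larger differences could go uncalled, as for *Usp18* at −0.17. Some sums of the marker lists for other cells moved with TVA in siNTC cells without overlap. The myeloid sum went from 14.2 to 15.5 FPKM down to 12.7 to 13.9. The plasmacytoid sum, which was mainly *Ccr9*, went from 14.6 to 15.03 FPKM down to 13.2 to 14.01. The part of these sums was not tested. The count was 2 with values rescaled to TPM, where *Stat2* and *Iigp1* were called, and 3 without siNTC library 3 or without siNTC with TVA library 2. Calls over all tested genes fell too, from 852 to 556, 671 and 558 in these 3 fits (4.81%, 5.81% and 4.83%).

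In siCreb1 cells TVA again lowered 6 of 38 members and raised none: *Stat2*, *Gbp2*, *Gbp7*, *Igtp*, *Irgm1* and *Iigp1*, by 11.1% to 18.7%. Over all tested genes 0.416% were called lower and 0.121% higher, and 15.8% of the members lower. Here too 0 members were higher at an unadjusted limma p under 0.05, and 0 were called higher on the recovered reads. The median log2 fold change was −0.10 over the members and −0.0012 over all tested genes. Of the 7 GTPase genes 5 were called lower, and of the 31 tested type I-type genes only *Stat2*. The 2 TVA comparisons share no library, and 5 genes (*Stat2*, *Gbp2*, *Igtp*, *Irgm1* and *Iigp1*) were called lower in both. At most 0.416% of all tested genes, the share called lower in siCreb1 cells, can have been called lower in both. Of the 38 members 25 (65.8%) had a negative log2 fold change in both, all 7 GTPase genes among them, against 28.5% of all tested genes. In siCreb1 cells 3 marker sums were higher with TVA without overlap: myeloid from 12.3 to 13.5 FPKM up to 15.5 to 18.2, NK cell from 6.27 to 7.28 up to 7.92 to 9.87, and B cell from 10.2 to 11.3 up to 11.8 to 12.8. The plasmacytoid sum, mainly *Ccr9*, was lower, from 13.5 to 14.2 FPKM down to 13.1 to 13.4. The part of all these sums was not tested. The count in siCreb1 cells fell to 1 (*Gbp2*) with TPM, to 2 without siCreb1 library 1 or 2 or without siCreb1 with TVA library 1 or 3, and to 3 without siCreb1 library 3. Calls over all tested genes fell too, from 62 to 37 with TPM and to between 30 and 44 without 1 of those libraries.

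The *Creb1* knockdown moved more members, and mostly upwards. Without TVA 12 of 38 were called, 11 higher by 6.91% to 21.0% and *Slfn5* lower by 32.5%. Over all tested genes 6.52% were called higher and 7.21% lower, against 28.9% and 2.63% of the members. The 11 higher genes were *Irf1*, *Stat2*, *Oas3*, *Samd9l*, *Rtp4*, *Xaf1*, *Ifi27*, *Parp12*, *Gbp2*, *Gbp7* and *Igtp*. The median log2 fold change was 0.09 over the members and −0.0011 over all tested genes. The summed level of the 6 CD8 T cell markers moved with the knockdown too, with *Cd8b1* lower and *Cd8a* higher in the mean. It went from 2353 to 2377 FPKM in the siNTC group to 2234 to 2241 FPKM in the siCreb1 group. The myeloid sum went from 14.2 to 15.5 FPKM down to 12.3 to 13.5. The plasmacytoid sum, mainly *Ccr9*, went from 14.6 to 15.03 FPKM down to 13.5 to 14.2. The part of these sums in the differences was not tested. In bulk RNA a change in the share of some cells and a change in RNA per cell cannot be told apart. Testing all 29700 genes above 0, without the filter on low values, left 7 called members. Calls over all genes went from 1586 of 11550 to 992 of 29700 (3.34%).

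With TVA present the knockdown again raised more members than it lowered. Of 38 tested, 10 were called higher by 9.86% to 19.3% (*Irf1*, *Irf9*, *Stat2*, *Oas3*, *Zbp1*, *Adar*, *Samd9l*, *Xaf1*, *Ifi27* and *Iigp1*), and *Slfn5* and *Ifi47* were lower. Over all tested genes 4.64% were called higher and 5.51% lower, against 26.3% and 5.26% of the members. The 2 knockdown comparisons share no library, and 6 genes rose in both: *Irf1*, *Stat2*, *Oas3*, *Samd9l*, *Xaf1* and *Ifi27*. At most 4.64% of all tested genes, the share called higher with TVA, can have been called higher in both. Of the 38 members 25 (65.8%) had a positive log2 fold change in both, against 30% of all tested genes, and for the GTPase genes it was 3 of 7. The CD8 T cell marker sum was 2328 to 2353 FPKM in the siNTC with TVA libraries and 2220 to 2242 FPKM in the siCreb1 with TVA libraries, and the myeloid sum was higher without overlap, from 12.7 to 13.9 FPKM up to 15.5 to 18.2; their part was not tested. The split of 10 higher and 2 lower was 11 and 0 with TPM, which moved the median of all genes from −0.01 to 0.04, and 12 and 1 after quantile normalization. The count was 5 without siNTC with TVA library 1, 7 without library 2 or 3 of that group, 6 without siCreb1 with TVA library 1 or 2, and 7 without the filter on low values. Calls over all tested genes numbered 1172 in the main fit, 740 with TPM and 937 after quantile normalization. They numbered 599 to 757 without 1 of those libraries, and 683 of 29700 without the filter.

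The siNTC with DMSO libraries enter both the TVA comparison in siNTC cells and the knockdown comparison without TVA, so those values are not independent of each other; the same holds for every pair of comparisons with a group in common. The difference between the 2 TVA effects was tested as the interaction. It was called for 1 of 38 members, *Gbp2* (lower), and over all tested genes for 1.78% lower and 0.459% higher. For the other 37 the TVA effects in siNTC and siCreb1 cells were not shown to differ, which does not show that they were alike. Over all 5 comparisons 18 of the 38 members were called at least once and 20 never, and 21.4% of all tested genes were called at least once.

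**Figure D3:**
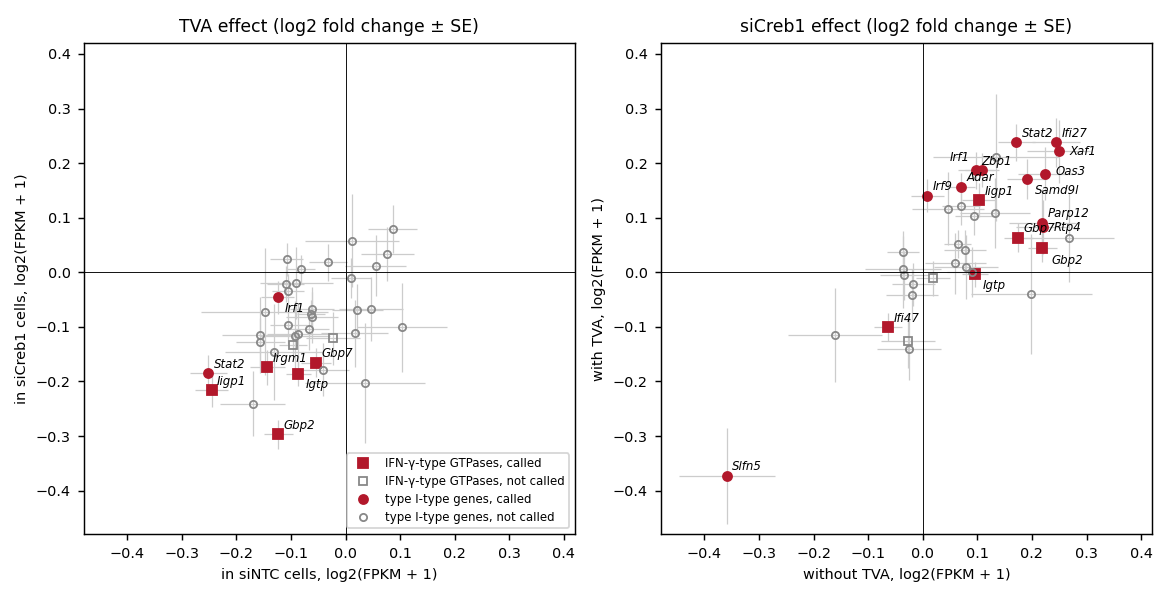
Left, the log2 fold change with TVA of each tested member in siNTC cells (x) and in siCreb1 cells (y); right, the log2 fold change after siCreb1 without TVA (x) and with TVA (y). Bars are SE from the fit, squares are GTPase genes, and filled red symbols with names were called on at least 1 axis; the GTPase genes lie below 0 on both axes at the left, and at the right the named genes lie mostly above 0, with *Slfn5* at −0.36 and −0.37.

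The transcription factors of the pathway come first. *Stat2* (ENSMUSG00000040033, chromosome 10, 128270559 to 128292849, plus strand) encodes the STAT of ISGF3 that is particular to type I and type III interferon signalling. It was at 16.1, 15.9 and 16.7 FPKM in the siNTC libraries and 13.5, 13.7 and 13.2 with TVA. It was at 18.9, 17.9 and 18.4 FPKM in the siCreb1 libraries and 15.6, 16.6 and 15.9 with TVA. The siNTC with TVA libraries were thus the lowest and the siCreb1 libraries the highest, while siNTC and siCreb1 with TVA overlapped. TVA lowered *Stat2* by 17.01% in siNTC cells (log2 fold change −0.25, SE 0.03, limma adjusted p = 0.00115), and the knockdown raised it by 13.4% without TVA (log2 fold change 0.17, SE 0.03, limma adjusted p = 0.00869) and by 19.3% with TVA (log2 fold change 0.24, SE 0.03, limma adjusted p = 0.00304). These 3 calls held in all 18 alternatives, which are 6 other ways of processing and 12 fits that each leave out 1 library. The fall with TVA in siCreb1 cells, by 12.7%, was less secure (log2 fold change −0.18, SE 0.03, limma adjusted p = 0.0454) and held in 2 of the 18 alternatives (limma adjusted p from 0.0138 to 0.200).

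*Irf1* (chromosome 11, 53770014 to 53778374, plus strand) encodes the factor that relays interferon-γ to many GTPase genes. Its libraries stood at 80.3, 87.1 and 83.7 FPKM in siNTC cells and at 76.9, 77.4 and 75.6 with TVA. In siCreb1 cells they stood at 88.9, 90.8 and 91.1 FPKM and at 87.1, 85.3 and 89.9 with TVA. All 3 siNTC with TVA libraries were below every other library. The rise of 14.1% after the knockdown in the presence of TVA (log2 fold change 0.19, SE 0.03, limma adjusted p = 0.00538) held in all 18 alternatives. The fall of 8.42% with TVA in siNTC cells (log2 fold change −0.12, SE 0.03, limma adjusted p = 0.0344) held in 7 of the 18 alternatives (limma adjusted p from 0.0127 to 0.111), and the rise of 7.87% after the knockdown without TVA (log2 fold change 0.11, SE 0.03, limma adjusted p = 0.0402) in 7 of the 18 alternatives (limma adjusted p from 0.00242 to 0.114).

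*Irf9*, the DNA-binding subunit of ISGF3, was at 24.9, 25.3 and 26.5 FPKM in siNTC cells with TVA and at 28.7, 28.3 and 27.9 in siCreb1 cells with TVA, a rise of 10.6% (log2 fold change 0.14, SE 0.03, limma adjusted p = 0.0178) that held in 14 of the 18 alternatives (limma adjusted p from 0.00255 to 0.0664). Without TVA it was at 28.2, 27.6 and 27.1 FPKM in siNTC and 28.6, 27.7 and 27.2 in siCreb1 libraries, which overlapped. *Irf7*, which amplifies the type I response, was at 13.4 to 15.8 FPKM over the 12 libraries and was called in no comparison (log2 fold changes from −0.08 to −0.02 in the 4 pairwise comparisons).

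**Figure D4:**
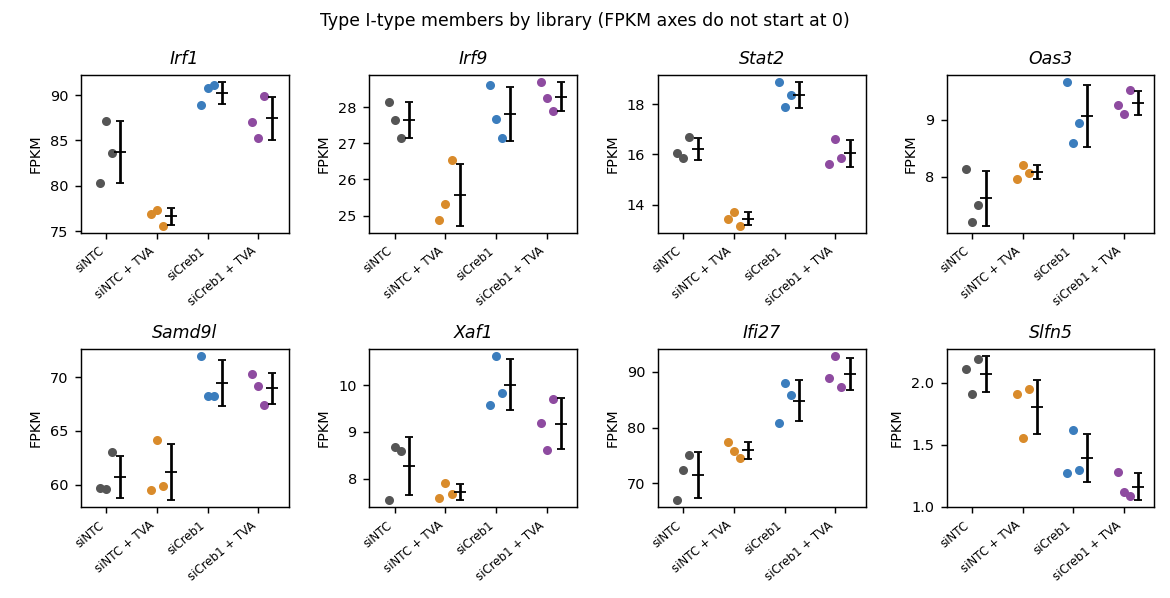
FPKM of 8 type I-type genes, 1 point per library (3 in each group), with the group mean ± SD in black; the axes do not start at 0. *Stat2* and *Irf1* are lowest with TVA in siNTC cells, the means of *Oas3*, *Samd9l*, *Xaf1* and *Ifi27* are higher in both siCreb1 groups than in both siNTC groups, and those of *Slfn5* are lower.

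The IFIT genes, whose products bind viral RNA, and the genes of the ISG15 system were called in no comparison. *Ifit1*, *Ifit2*, *Ifit3* and *Ifit3b* lie together on chromosome 19 between 34550694 and 34650009. *Ifit3* was at 10.6, 11.2 and 10.9 FPKM in siNTC libraries and at 9.68, 9.51 and 9.89 with TVA, and these did not overlap, but the difference missed the threshold (log2 fold change −0.16, SE 0.04, limma adjusted p = 0.0629; 95% interval −0.25 to −0.06). *Ifit3b* is its near copy: the longest transcripts share 98% of 1697 aligned bases, so reads could be split between them, and with the reads of both summed the log2 fold change was −0.14 (limma adjusted p = 0.0948). *Ifit1* (4.21 to 5.37 FPKM) and *Ifit2* (12.1 to 14.8 FPKM) had log2 fold changes with TVA in siNTC cells of −0.16 and 0.06.

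*Isg15* itself was one of the least even members, at 12.5, 14.4 and 11.4 FPKM in siNTC, 12.2, 13.2 and 13.7 with TVA, 13.5, 15.6 and 15.2 in siCreb1 and 13.3, 10.5 and 14.4 in siCreb1 with TVA libraries. All groups overlapped with at least one other, and the interval of the TVA difference in siNTC cells was −0.21 to 0.28 on the log2 scale. *Usp18*, which removes ISG15 from proteins and restrains the type I receptor, had log2 fold changes of −0.17 and −0.24 with TVA in siNTC and siCreb1 cells (limma adjusted p = 0.121 and 0.160). *Trim25*, a ubiquitin ligase that acts on RIG-I, was at 29.99 to 33.9 FPKM. *Dtx3l* and *Parp9*, which act as a pair in ubiquitin and ADP-ribose transfer, were at 46.5 to 53.9 and 29.96 to 35.97 FPKM; their exons overlap by 458 bases on opposite strands, so some reads could be counted for either.

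Of the OAS family, whose products make the 2-5A messenger that activates RNase L, only *Oas3* and *Oas1a* were high enough to test. *Oas3* was at 8.14, 7.21 and 7.505 FPKM in siNTC and 7.96, 8.204 and 8.07 in siNTC with TVA libraries. After the knockdown it was at 9.67, 8.59 and 8.94 FPKM without and 9.26, 9.096 and 9.52 with TVA, so that every siCreb1 library was above every siNTC library. The rise was 18.98% without TVA (log2 fold change 0.22, SE 0.05, limma adjusted p = 0.0138), held in all 18 alternatives, and 15.02% with TVA (log2 fold change 0.18, SE 0.05, limma adjusted p = 0.0425), held in 8 of the 18 alternatives (limma adjusted p from 0.00652 to 0.118). *Oas1a* was the least even of the tested genes, at 3.36 to 6.14 FPKM with a coefficient of variation of 13.1%, and was not called. *Oas2*, *Oasl1* and *Oasl2* had 32 to 118, 24 to 59 and 72 to 147 reads per library, and nothing is said of their differences.

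Of the 5 members grouped as RNA and DNA sensors 2 were called, both higher and only after the knockdown with TVA present. Over all tested genes 4.64% were called higher in that comparison. *Zbp1*, a sensor of Z-form nucleic acid, was at 42, 41.4 and 39.95 FPKM in siNTC with TVA and at 46.2, 46.4 and 48.2 in siCreb1 with TVA libraries, a rise of 14.1% (log2 fold change 0.19, SE 0.03, limma adjusted p = 0.00765). *Adar*, which edits double-stranded RNA and so keeps it from being sensed, was at 18.2, 17.6 and 17.4 and 20.1, 19.8 and 19.7 FPKM in the same groups, a rise of 12.1% (log2 fold change 0.16, SE 0.03, limma adjusted p = 0.00536). Both calls held in all 18 alternatives; 16.8% of the exon bases of *Adar* also belong to *Chrnb2* on the opposite strand. Without TVA the knockdown differences were 0.10 for *Zbp1* and 0.07 for *Adar* on the log2 scale, and neither was called (limma adjusted p = 0.0793 and 0.0965). For both genes the difference between the 2 knockdown effects is the interaction, which was not called (0.09 and 0.09; limma adjusted p = 0.437 and 0.304). *Ddx58*, which encodes RIG-I, lay just outside the threshold with TVA (log2 fold change 0.12, SE 0.03, limma adjusted p = 0.0508). *Ifih1* (MDA5) and *Dhx58* (LGP2) had positive log2 fold changes of 0.12 and 0.11 in that comparison and were not called.

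Among the other antiviral effectors the same 3 genes rose in both knockdown comparisons. *Ifi27* was at 67.02, 72.4 and 75.1 FPKM in siNTC and 77.4, 75.8 and 74.5 in siNTC with TVA libraries, against 80.8, 88 and 85.8 in siCreb1 and 88.98, 92.9 and 87.3 in siCreb1 with TVA libraries. It encodes a small membrane protein, and its rise of 18.7% without and 18.2% with TVA (log2 fold change 0.24, SE 0.04, limma adjusted p = 0.00560; log2 fold change 0.24, SE 0.04, limma adjusted p = 0.00942) held in all 18 alternatives. *Samd9l*, which restricts poxviruses, was at 59.6, 59.6 and 62.99 FPKM in siNTC and 71.96, 68.2 and 68.3 in siCreb1 libraries (log2 fold change 0.19, SE 0.04, limma adjusted p = 0.00702). With TVA the *Samd9l* libraries were at 59.5, 64.2 and 59.9 and 70.3, 69.2 and 67.4 FPKM (log2 fold change 0.17, SE 0.04, limma adjusted p = 0.0167). The first of these calls held in all 18 alternatives and the second in 14 of 18. *Xaf1*, a pro-apoptotic gene, was at 7.55, 8.68 and 8.59 FPKM in siNTC and 9.57, 10.6 and 9.84 in siCreb1 libraries, a rise of 20.99% (log2 fold change 0.25, SE 0.06, limma adjusted p = 0.0191) that held in 15 of the 18 alternatives (limma adjusted p from 0.00223 to 0.0685). With TVA it was at 7.58, 7.91 and 7.67 and 9.19, 8.62 and 9.71 FPKM (log2 fold change 0.22, SE 0.06, limma adjusted p = 0.0387), held in 11 of 18.

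*Rtp4* and *Parp12* were called only without TVA. *Rtp4*, a chaperone of receptors with antiviral activity, was at 28.5, 26.8 and 27.6 FPKM in siNTC and 34.6, 31.7 and 30.9 in siCreb1 libraries (log2 fold change 0.22, SE 0.05, limma adjusted p = 0.0146), and this held in 17 of 18 alternatives. *Parp12*, an ADP-ribosyltransferase, was at 6.996, 6.86 and 6.04 and 8.61, 7.44 and 7.61 FPKM (log2 fold change 0.22, SE 0.06, limma adjusted p = 0.0391), and the call held in 7 of the 18 alternatives (limma adjusted p from 0.0144 to 0.128). Neither interaction was called (−0.14 and −0.13; limma adjusted p = 0.410 and 0.555). *Mx1*, a gene of the dynamin-like GTPase family, was at 1.61, 1.79 and 1.89 FPKM in siNTC and 2.502, 2.18 and 2.31 in siCreb1 libraries. These did not overlap, but the difference missed the threshold (log2 fold change 0.27, SE 0.08, limma adjusted p = 0.0543).

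*Slfn5* (chromosome 11, 82951349 to 82964840, plus strand), of the Schlafen family, was the only member called lower in both knockdown comparisons. It was 1 of 8 tested members with a negative log2 fold change in both. It was at 2.11, 1.91 and 2.19 FPKM in siNTC and 1.27, 1.62 and 1.301 in siCreb1 libraries. With TVA it was at 1.91, 1.56 and 1.95 and 1.28, 1.12 and 1.09 FPKM. The knockdown lowered it by 32.5% without TVA (log2 fold change −0.36, SE 0.09, limma adjusted p = 0.0227) and by 35.6% with TVA (log2 fold change −0.37, SE 0.09, limma adjusted p = 0.0252). It is also one of the least read of the tested members, with 152 to 287 reads per library, and each call held in 12 of 18 alternatives (limma adjusted p up to 0.0791 and 0.0792). The antisense gene *Slfn5os* covers 8.84% of its exon bases, and the strand of the reads is not given in the sources used here. *Bst2*, *Lgals3bp*, *Ifi35* and *Parp14* were called in no comparison and had levels of 88.3 to 106, 54.1 to 62.9, 28.6 to 32.3 and 23 to 25.8 FPKM.

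The guanylate-binding proteins coat and break the vacuoles of intracellular pathogens, and their genes *Gbp7*, *Gbp3* and *Gbp2* lie in this order on chromosome 3 between 142530342 and 142638008. *Gbp2* (ENSMUSG00000028270) was at 125, 116 and 120.4 FPKM in siNTC and 111, 111 and 109.9 in siNTC with TVA libraries. In siCreb1 cells it was at 143, 141 and 138 FPKM without and 114, 116 and 113 with TVA. The siCreb1 libraries without TVA thus stood apart above all others, and siNTC with TVA and siCreb1 with TVA were near each other but did not overlap. TVA lowered *Gbp2* by 8.27% in siNTC cells (log2 fold change −0.12, SE 0.03, limma adjusted p = 0.0176) and by 18.7% in siCreb1 cells (log2 fold change −0.30, SE 0.03, limma adjusted p = 0.000595), and the knockdown raised it by 16.5% without TVA (log2 fold change 0.22, SE 0.03, limma adjusted p = 0.000675). With TVA the knockdown difference was 0.04 (SE 0.03, limma adjusted p = 0.318). The calls in siCreb1 cells and for the knockdown without TVA held in all 18 alternatives, and the TVA call in siNTC cells in 15 of 18. The interaction, which is the TVA effect in siCreb1 minus that in siNTC cells, was −0.17 (SE 0.04, limma adjusted p = 0.0403), and this call held in only 3 of the 18 alternatives (limma adjusted p from 0.00947 to 0.204).

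*Gbp7*, like *Gbp2*, was highest in siCreb1 cells without TVA. It was at 38.3, 36.8 and 36.9 FPKM in siNTC, 36.3, 35.9 and 35.5 in siNTC with TVA, 43.5, 41.7 and 41.6 in siCreb1 and 37.1, 38.5 and 37.1 in siCreb1 with TVA libraries. The knockdown raised it by 13.3% without TVA (log2 fold change 0.18, SE 0.03, limma adjusted p = 0.00247), which held in all 18 alternatives, and TVA lowered it by 11.1% in siCreb1 cells (log2 fold change −0.17, SE 0.03, limma adjusted p = 0.0243), which held in 11 of the 18 alternatives (limma adjusted p from 0.00316 to 0.207). A processed pseudogene, *Gm43802*, covers 11.3% of its exon bases, and its transcript shares 78.7% of the bases aligned with that of *Gbp3*. *Gbp3* was at 22.02 to 27.2 FPKM and was called in no comparison; its lowest libraries were those of siCreb1 with TVA (25.3, 23.98 and 22.02).

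The immunity-related GTPases mark and disrupt pathogen vacuoles, with *Irgm1* and *Igtp* encoding regulatory members and *Iigp1* an effector. *Iigp1* was at 44.6, 41.6 and 45.7 FPKM in siNTC and 37.02, 36.7 and 36.97 in siNTC with TVA libraries. It was at 47.3, 47.4 and 46.96 FPKM in siCreb1 and 39.98, 40.8 and 40.7 in siCreb1 with TVA libraries. The 4 groups did not overlap. TVA lowered it by 16.1% in siNTC cells (log2 fold change −0.25, SE 0.03, limma adjusted p = 0.000733), in all 18 alternatives, and by 14.2% in siCreb1 cells (log2 fold change −0.22, SE 0.03, limma adjusted p = 0.0111), in 13 of the 18 alternatives (limma adjusted p from 0.00103 to 0.115). The knockdown raised it by 9.86% with TVA (log2 fold change 0.13, SE 0.03, limma adjusted p = 0.0245), in 11 of the 18 alternatives (limma adjusted p from 0.00529 to 0.0790), and its rise without TVA missed the threshold (log2 fold change 0.10, SE 0.03, limma adjusted p = 0.0518).

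*Igtp* (chromosome 11, 58199556 to 58207591, plus strand), the gene with the highest level, was at 321, 319.7 and 321 FPKM in siNTC and 308, 293 and 305 in siNTC with TVA libraries. It was at 343, 335 and 351 FPKM in siCreb1 and 300.2, 302 and 301 in siCreb1 with TVA libraries. Both TVA groups were below both DMSO groups. The fall in siCreb1 cells, by 12.2% (log2 fold change −0.19, SE 0.02, limma adjusted p = 0.00383), held in 17 of 18 alternatives, all but TPM (limma adjusted p = 0.155, and from 2.34e-05 to 0.155 over the alternatives). The fall in siNTC cells, by 5.83% (log2 fold change −0.09, SE 0.02, limma adjusted p = 0.0484), held in only 3 of the 18 alternatives (limma adjusted p from 0.0449 to 0.287), and the rise after the knockdown without TVA, by 6.91% (log2 fold change 0.10, SE 0.02, limma adjusted p = 0.0214), in 14 of the 18 alternatives (limma adjusted p from 0.000781 to 0.0776). *Igtp* and the neighbouring *Irgm2* share 162 exon bases, 8.01% of those of *Igtp*.

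*Irgm1* was at 41.1, 38.96 and 40.6 FPKM in siNTC and 40.4, 42.2 and 39.6 in siCreb1 libraries. With TVA it was at 36.7, 35.4 and 36.8 and 36.2, 35.1 and 36.7 FPKM, so both TVA groups were below both DMSO groups, and neither knockdown difference was called (log2 fold change 0.02 without and −0.01 with TVA; SE 0.03). With TVA it fell by 9.73% in siNTC cells (log2 fold change −0.14, SE 0.03, limma adjusted p = 0.0215), in 14 of the 18 alternatives (limma adjusted p from 0.00935 to 0.133). The fall of 11.6% in siCreb1 cells (log2 fold change −0.17, SE 0.03, limma adjusted p = 0.0454) held in only 3 of the 18 alternatives (limma adjusted p from 0.00359 to 0.372). *Ifi47*, which encodes the GTPase IRGD, was at 271, 260.0 and 256 FPKM in siNTC with TVA and 243, 241 and 249.6 in siCreb1 with TVA libraries, a fall of 6.81% (log2 fold change −0.10, SE 0.03, limma adjusted p = 0.0337). That call held in 10 of the 18 alternatives (limma adjusted p from 0.0271 to 0.850), and the log2 fold change was −0.02 at the nearest to 0, so the direction rests on a small value. With TVA *Ifi47* had log2 fold changes of −0.10 in siNTC and −0.13 in siCreb1 cells, both just outside the threshold (limma adjusted p = 0.0502 and 0.0612).

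**Figure D5:**
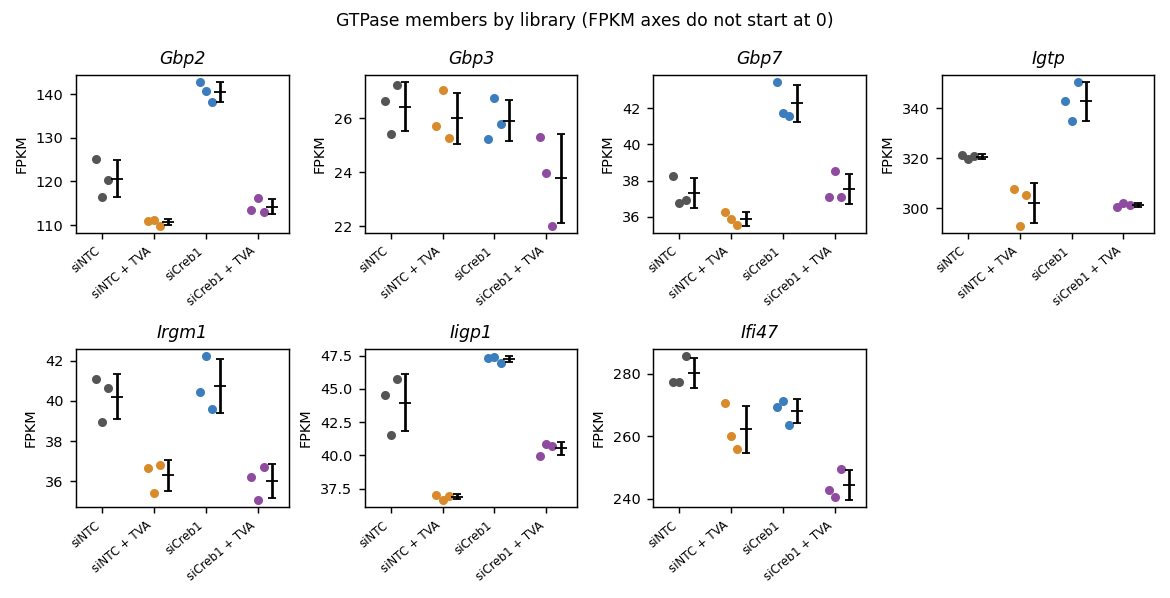
FPKM of the 7 GTPase genes, 1 point per library (3 in each group), with the group mean ± SD in black; the axes do not start at 0. *Iigp1*, *Irgm1* and *Igtp* are lower in both TVA groups than in both DMSO groups, and *Gbp2* and *Gbp7* are highest in siCreb1 cells without TVA.

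The interferons themselves were almost unread. *Ifng*, the only one with a mean of at least 1 FPKM, was at 0.759 to 1.53 FPKM over the 12 libraries and was called in no comparison (in siNTC cells TVA gave a log2 fold change of −0.19, SE 0.14). *Ifnb1*, *Ifna2*, *Ifna4* and *Ifne* were listed at 0 in all 12 libraries, which allows up to 3 reads per library for each and covers counting error only. *Ifna1*, *Ifnk*, *Ifnl2* and *Ifnl3* had at most 2 reads in a library. RNA taken at 24 h does not tell which interferon, if any, the cells had met before.

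Of 5 tested receptor chains *Ifngr1* was called in 3 comparisons and *Il10rb* in 1. Over all tested genes 4.49% were called higher and 2.88% lower with TVA in siNTC cells. After the knockdown 7.21% were called lower without TVA and 5.51% with TVA. *Ifngr1*, the ligand-binding chain for interferon-γ, was at 224, 222 and 226 FPKM in siNTC and 196, 186 and 185 in siNTC with TVA libraries. It was at 184, 180.0 and 181 FPKM in siCreb1 and 169, 174 and 168 in siCreb1 with TVA libraries, so the siNTC libraries without TVA stood above all others. It fell with TVA in siNTC cells (log2 fold change −0.24, SE 0.02, limma adjusted p = 0.000185) and after the knockdown without TVA (log2 fold change −0.30, SE 0.02, limma adjusted p = 8.58e-05) and with TVA (log2 fold change −0.15, SE 0.02, limma adjusted p = 0.00573). *Ifnar1*, *Ifnar2* and *Ifngr2* were called in no comparison, with log2 fold changes of −0.07, −0.07 and 0.07 with TVA in siNTC cells. *Il10rb*, a chain shared with type III interferon, rose with TVA in siNTC cells (log2 fold change 0.13, SE 0.03, limma adjusted p = 0.0348).

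*Jak1*, *Jak2* and *Tyk2* were called in no comparison. *Socs1*, which blocks JAK kinases and is itself induced by interferon-γ, was at 66.2, 72.2 and 64.2 FPKM in siNTC and 50.5, 48.4 and 51.8 in siCreb1 libraries, a fall (log2 fold change −0.42, SE 0.04, limma adjusted p = 0.000236), and it also fell with TVA in siNTC cells (log2 fold change −0.27, SE 0.04, limma adjusted p = 0.00296) and after the knockdown with TVA (log2 fold change −0.16, SE 0.04, limma adjusted p = 0.0401). Of the 10 tested negative regulators 4 were called after the knockdown without TVA (6.52% of all tested genes higher and 7.21% lower), *Cish* and *Ptpn2* higher (0.28 and 0.12) and *Socs1* and *Irf2bp2* lower (−0.42 and −0.14). With TVA 2 of the 10 were called, *Socs1* and *Ptpn1*, both lower (−0.16 and −0.12; 5.51% of all tested genes lower).

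Among 10 tested genes of nucleic acid sensing outside the 43, *Mb21d1*, which encodes the DNA sensor cGAS, was at 3.74, 3.27 and 3.46 FPKM in siNTC and 5.02, 4.705 and 5.6 in siNTC with TVA libraries. It rose with TVA in siNTC cells (log2 fold change 0.44, SE 0.07, limma adjusted p = 0.00212) and after the knockdown without TVA (log2 fold change 0.30, SE 0.07, limma adjusted p = 0.0146), and the TVA difference in siCreb1 cells was 0.14 (SE 0.07, limma adjusted p = 0.543). *Samhd1*, a dNTPase that limits retroviruses, fell with TVA in siNTC cells (log2 fold change −0.11, SE 0.02, limma adjusted p = 0.00675). *Ikbke*, a kinase upstream of IRF3, rose after the knockdown with TVA (log2 fold change 0.18, SE 0.03, limma adjusted p = 0.00685). With TVA in siNTC cells 1 of the 10 was called higher and 1 lower, against 4.49% and 2.88% of all tested genes. The knockdown raised 1 of the 10 in each comparison, against 6.52% of all tested genes without and 4.64% with TVA. *Tmem173*, which encodes STING, was at 48.6 to 53.5 FPKM and was called in no comparison. *Trex1* was listed at 0 in all 12 libraries. The counting program and annotation release are not given, so this value does not show that its RNA was absent.

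Another 50 interferon-stimulated genes outside the 43 were listed for comparison, of which 41 were tested. With TVA in siNTC cells 6 were lower and 0 higher (*Gbp8*, *Irgm2*, *Tgtp1*, *Tgtp2*, *Slfn1* and *Slfn2*), with a median log2 fold change of −0.08 (2.88% of all tested genes were lower). In siCreb1 cells 1 was lower with TVA, *Irgm2* (log2 fold change −0.19, SE 0.03, limma adjusted p = 0.0258), against 0.416% of all tested genes. After the knockdown without TVA 8 were higher and 6 lower (19.5% and 14.6%, against 6.52% and 7.21% of all tested genes), with a median of 0.08 against −0.0011 over all. With TVA 9 were higher and 6 lower (22% and 14.6%, against 4.64% and 5.51%), with a median of 0.07 against −0.01 over all. The share called lower was thus above that of all tested genes here, while among the 43 it was 2.63% and 5.26% of the 38 tested. *Gbp4* and *Gbp8*, guanylate-binding protein genes of another cluster, rose in both knockdown comparisons, *Gbp4* from 55.5, 56.1 and 60.9 FPKM in siNTC to 70.6, 67.4 and 66.4 in siCreb1 libraries (log2 fold change 0.24, SE 0.04, limma adjusted p = 0.00192). *Slfn1* and *Slfn2* fell in both, as *Slfn5* did, *Slfn2* from 299, 282 and 291 to 228, 232 and 239.6 FPKM (log2 fold change −0.31, SE 0.03, limma adjusted p = 9.91e-05). *Tgtp1* and *Tgtp2* fell after the knockdown without TVA (−0.18 and −0.09 on the log2 scale). The interaction was called for 0 of the 41 by limma, and 8 of them had an unadjusted p under 0.05, 6 higher and 2 lower.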

How the data were processed

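RNA of 12 libraries (4 groups of 3) of mouse primary CD8+ T cells was sequenced by the authors from SMARTER mRNA-Seq libraries, and they deposited 1 table of FPKM values per library for 54532 genes, on GRCm38 per the labels. The aligner, counting program, annotation release, read strand and any scaling between libraries are not given in the sources used here. Read numbers were recovered from the steps in FPKM times gene length, where at least 99.995% of values above 0 came out whole (within 0.05 reads), and summed to 16660234 to 24602484 per library. Between replicates of a group the chi-square per gene of these reads was 3.54 to 5.29 (12 pairs, 1 for counting error alone), so no library was a copy of another. Genome positions are those of the tables, and 42 of the 43 members have the same position in GENCODE vM21.

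With limma 3.58.1 (eBayes with trend) in R 4.3.3, 1 fit on log2(FPKM + 1) with a coefficient per group covered the 11550 genes whose mean was 1 FPKM or more. Adjustment of p-values was by Benjamini-Hochberg over those genes (threshold 0.05). A log2 fold change is on the log2(FPKM + 1) scale, which understates changes of low genes. Per cent differences compare group means of FPKM. All 43 members could be named, with full statistics for those called, the highest of each role and those too low to test, and pathway genes if called; interferons, receptor chains, JAK kinases and *Creb1* whatever their values. Some further genes are not reported here. The members, their classes and the pathway lists were chosen with earlier results of these data known.

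Each result was computed in 18 other ways: with 0.1 as pseudocount, with the 29700 genes that had any read, after quantile normalization, with TPM, with the replicate number as a block, by limma-voom on the recovered reads, and leaving out each of the 12 libraries. On the recovered reads limma-voom called 1013, 157, 1983, 1532 and 446 of 11550 genes for TVA in siNTC cells, TVA in siCreb1 cells, the knockdown without TVA, the knockdown with TVA and the interaction. Reads of *Ifit3* and its near copy *Ifit3b* were also summed. Replicate numbers come from the sample titles. Scripts were tested on simulated data. Sequences are from RefSeq promoter tables (GRCm38.p6), and figures were drawn with matplotlib 3.10.9.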

Additional observations from a re-analysis of the deposited data

Results flagged for a closer look

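*Gbp2* is listed here because its TVA effect differed between the siRNA conditions by a test of that difference, with an interaction of −0.174 on the log2 scale (SE 0.04, limma adjusted p = 0.0403, 3 libraries a group). TVA went with lower *Gbp2* in both, and the fall was larger in siCreb1 cells, where all 3 siCreb1 libraries without TVA stood above all other libraries. The call held in 3 of 18 alternatives: a pseudocount of 0.1, limma-voom on the recovered reads, and the fit without siNTC library 1. Over the alternatives the limma adjusted p ranged from 0.00947 to 0.204 and the interaction from −0.20 to −0.15.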

How the results depend on the processing

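All 37 called pairs of gene and comparison kept their direction in the 18 alternatives; 17 stayed called under all 6 other ways of processing, and 14 of these also with any 1 library left out. With values rescaled to TPM the number of members called with TVA was 2 in siNTC and 1 in siCreb1 cells, and the median log2 fold change after the knockdown was 0.14 without and 0.11 with TVA (0.10 and 0.0762 after quantile normalization, 0.11 and 0.0794 by limma-voom on the recovered reads). TPM also moved the median of all 11550 genes, to 0.0434 without and 0.0370 with TVA, from −0.0011 and −0.01. With TPM 4.81% and 0.32% of all tested genes were called with TVA in siNTC and siCreb1 cells. Without the filter on low values 7 members were called in each knockdown comparison, and 3.34% and 2.3% of 29700 genes without and with TVA. The *Gbp2* interaction was lost (0 members called) without the filter, after quantile normalization, with TPM and with the replicate block, and the median interaction was −0.00427 after quantile normalization. Over all tested genes 259 were called for the interaction in the main fit, and 244, 152 and 195 in the last 3 of these. Without the filter it was 174 of 29700. The cause of these shifts was not tested. Without the filter 29700 genes entered both the fit and the adjustment of p-values. With 1 library left out, 3 to 6 members were called for TVA in siNTC cells (median log2 fold change −0.0836 to −0.0670), 2 to 5 for TVA in siCreb1 cells (−0.10 to −0.0766), 8 to 12 for the knockdown without TVA (0.0730 to 0.0938), 5 to 13 with TVA (0.05 to 0.06), and 0 to 1 for the interaction (−0.04 to −0.01). Over all 11550 genes these fits called 558 to 767, 30 to 67, 1020 to 1532, 599 to 1245 and 168 to 237 genes, in the same order. A left-out library leaves its group with 2, and limma then pools the spread over groups. Over all 11550 genes limma called 62 for TVA in siCreb1 cells and 259 for the interaction, against 157 and 446 by limma-voom on the recovered reads.

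The libraries of the 4 groups share the replicate numbers 1 to 3, but same-numbered libraries did not deviate together (correlations of their deviations from −0.059 to 0.060), so the numbers were not taken as pairs. With the replicate block 4 members were called for TVA in siNTC cells, 3 for TVA in siCreb1 cells, 11 for the knockdown without TVA and 11 with TVA. Over all tested genes the shares called with the block were 5.95%, 0.294%, 12% and 8.42%. With the reads of *Ifit3* and *Ifit3b* summed *Ifit3* stayed uncalled in all 5 comparisons. The 5 untested genes were left out by their mean FPKM, and *Oasl2* among them had 72 to 147 reads per library. Low read numbers limit tested members such as *Ifit3b*, with 37 to 56 reads per library.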

Other observations

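Among the interferon-stimulated genes outside the 43 that were looked at, *Rnf213*, *Sp110*, *Gvin1*, *Gbp4* and *Gbp8* were called higher and *Epsti1*, *Ifit1bl1*, *Slfn1* and *Slfn2* lower in both knockdown comparisons, which share no library. They are named after their values were seen. Of all tested genes at most 4.64% can have been called higher in both, and at most 5.51% lower in both. *Rnf213*, which encodes a large antimicrobial ubiquitin ligase, was at 22.9, 23.5 and 22.8 FPKM in siNTC and 28.04, 26.4 and 27.3 in siCreb1 libraries (log2 fold change 0.23, SE 0.03, limma adjusted p = 0.000589), and with TVA at 22.1, 22.6 and 22.5 FPKM in siNTC and 27.5, 26.8 and 26.8 in siCreb1 libraries (log2 fold change 0.26, SE 0.03, limma adjusted p = 0.000705). *Sp110*, a nuclear body gene, rose in both (0.16 without and 0.24 with TVA on the log2 scale; limma adjusted p = 0.00696 and 0.00152), and so did *Gvin1*, a very large interferon-inducible GTPase gene (0.18 and 0.16; limma adjusted p = 0.0276 and 0.0457). *Epsti1* and *Ifit1bl1* fell in both. *Epsti1* had log2 fold changes of −0.12 and −0.11 (limma adjusted p = 0.00450 and 0.0111) and *Ifit1bl1*, a relative of the IFIT genes, went from 67.2, 67.8 and 72.1 FPKM in siNTC to 60.4, 53.9 and 56.9 in siCreb1 libraries (log2 fold change −0.27, SE 0.04, limma adjusted p = 0.00317), with a log2 fold change of −0.16 with TVA (limma adjusted p = 0.0433).

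The 5 members that were too low to test are given as values. *Oasl2* was at 0.613 to 1.03 FPKM, *Oas2* at 0.389 to 1.105, *Rsad2* at 0.5296 to 0.89, *Oasl1* at 0.553 to 0.935 and *Ifi44* at 0.0469 to 0.117 over the 12 libraries. *Oasl2* was at 0.778, 0.821 and 0.613 FPKM in siNTC and 1.01, 1.03 and 0.873 in siCreb1 libraries, with 72 to 147 reads per library. *Cxcl9* and *Cxcl10*, chemokine genes that interferon-γ induces, were also below the limit, with at most 12 and 35 reads in a library.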
